A study of Mus musculus with 7 samples.

Results

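The unfolded protein response and the integrated stress response were followed through 36 genes of their sensors, transcription factors, effectors, chaperones and degradation machinery, chosen by symbol out of 57010 genes in the deposited count table. They were measured in Tim4+ resident macrophages, which had been sorted by flow cytometry (CD11b, MHC class II, Tim4) from the peritoneal fluid of C57BL/6 mice. The injected group, taken 12 days after m204 MTO had been given, comprised 4 libraries, and the steady-state group 3. The abbreviation MTO is not explained in the labels; the series concerns peritoneal colorectal cancer. Neither group is said to carry a transgene or to have received another agent, and no age or sex is stated. The symbols matched 37 rows, since Ddit3 is listed under 2 identifiers. The second of these held no read in any library and lies within the first, and reads of such overlapping features can be lost in counting, so the level of Ddit3 is uncertain. Of the 36 genes, 35 had enough reads to be tested. Chac1, which encodes a glutathione-degrading enzyme of the ATF4 pathway, did not, with 0, 5, 3 and 9 reads at day 12 and 3, 2 and 0 reads in steady state.

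Totals were 34578834 to 38586694 counts at day 12 and 32077050 to 36201021 counts in steady state. Levels are CPM (counts scaled to a common library size) with TMM normalisation, an adjustment for differences in RNA composition. Means carry the SD over n = 4 day 12 and n = 3 steady-state libraries. A count of 3 stood for 0.0754 to 0.0958 CPM. The sorted identity was visible in the RNA: Timd4, which encodes Tim4, was at 495 ± 114 CPM at day 12 and 963 ± 80.5 CPM in steady state (SD, edgeR adjusted p = 0.00484), and Itgam, which encodes CD11b, was at 2133 ± 361 and 1328 ± 124 CPM (edgeR adjusted p = 0.0160). In bulk RNA, fewer cells of a type and less RNA per cell cannot be told apart.

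Proteins that enter the endoplasmic reticulum (ER) are folded there with the help of chaperones, and an overload of unfolded protein is sensed by the membrane proteins IRE1, PERK and ATF6. IRE1 splices the Xbp1 messenger, PERK slows translation by phosphorylating eIF2 alpha, and ATF6 is cut to release a transcription factor. Other kinases reach the same eIF2 alpha site when amino acids or heme run short or double-stranded RNA is present, so that ATF4 and its targets form a shared output, the integrated stress response. Macrophages use the pathway during secretion and cytokine production. Read counts per gene do not separate the spliced from the unspliced Xbp1 messenger, and ATF4 is mainly controlled at translation, so the activity of those steps was not measured here.

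The comparison asked whether these genes differed between macrophages of day 12 and of steady state. Most did not pass the test. At day 12, Atf3, Asns and Ero1a were higher and Herpud1 and Derl1 were lower (edgeR quasi-likelihood test, Benjamini-Hochberg adjusted p under 0.05), which makes 5 of 35 genes or 14.3%. Over all genes tested, 20.3% passed (10.1% of all genes upward and 10.2% downward), against 8.57% (3 of 35) and 5.71% (2 of 35) in the stress response genes. The share called was thus no higher than the background. The median log2 fold change, day 12 over steady state, was 0.12 in the 35 genes and 0.0031 over all genes tested. Its median size without regard to sign was 0.17 against 0.29. A fold change beyond 2 was seen in 1 of the 35 (2.86%, Asns) and in 14.5% of all genes. The libraries of the groups did not overlap in 9 of 35 (25.7%), against 35.0% of all genes tested: day 12 lay above in 5, where the background was 16.5%, and below in 4, where it was 18.5%. At an unadjusted p under 0.05, 10 of the 35 (28.6%) stood out, against 33.9% of all genes. For the 30 genes that did not pass, 95% intervals of the log2 fold change lay between -1.06 and 1.07, both ends set by Trib3, so that a missed threshold does not show equal levels. The number of rises depended on a single library in places: without day 12 replicate 4 it was 7 rather than 3, and DESeq2 called 6.

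CPM of the markers of other cell types were summed in each library, since several sums moved with the groups. B cell markers summed to 21.6 to 48.1 CPM at day 12 and 6.98 to 10.4 CPM in steady state, and 4 of 8 tested markers were higher. Plasma cell markers summed to 82.2 to 154 CPM at day 12 and 59.9 to 80.0 CPM in steady state, mostly Irf4, which macrophages also express, and 2 of 7 were higher. Dendritic cell and monocyte markers summed to 70.2 to 383 CPM at day 12 and 41.7 to 64.9 CPM in steady state, mostly Cd209a, which did not pass, while 1 of 3, Ccr2, was lower. Epithelial markers summed to 1.99 to 3.05 CPM at day 12 and 0.112 to 0.356 CPM in steady state, mostly Cdh1, and 1 of 2 was higher. Mesothelial and stromal markers, of which 0 had enough reads to be tested, summed to 0.61 to 1.05 CPM at day 12 and 0 to 0.192 CPM in steady state. Neutrophil markers summed to 109.9 to 199 CPM at day 12 and 432 to 448 CPM in steady state, nearly all Csf3r, the 1 of 3 that was lower. S100a8 and Elane, also tested, had higher means at day 12 without passing (edgeR adjusted p = 0.0982 and 0.362). S100a8 was at 1.37 ± 0.316 CPM at day 12 and 0.775 ± 0.209 CPM in steady state. The neutrophil sum thus follows Csf3r alone. In these 6 lists the sums of the groups did not overlap. Those of T and NK cells, eosinophils, mast cells and erythroid cells overlapped and were at most 3.39 CPM in any library, and of the 2 tested eosinophil markers Siglecf was higher (1.18 ± 0.347 CPM at day 12 and 0.424 ± 0.162 CPM in steady state, edgeR adjusted p = 0.0262). The listed markers at 0 in every library were Krt20, Cdx1 and Cdx2 (epithelium), Ly6g and Mpo (neutrophils), Epx and Prg2 (eosinophils), Msln and Upk1b (mesothelium) and Hba-a2 (erythroid cells). Other members of these lists had reads. The stromal marker Col1a1, for example, had 6, 7, 11 and 8 reads at day 12 and 0 in each steady-state library. Markers of resident peritoneal macrophages summed to 22530 to 29260 CPM at day 12 and 57500 to 59890 CPM in steady state. The steady-state sum was mostly Lyz2, which was lower at day 12. Of these 10 markers, 4 were higher and 3 lower. The part of these differences in the results was not tested.

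**Figure D1:**
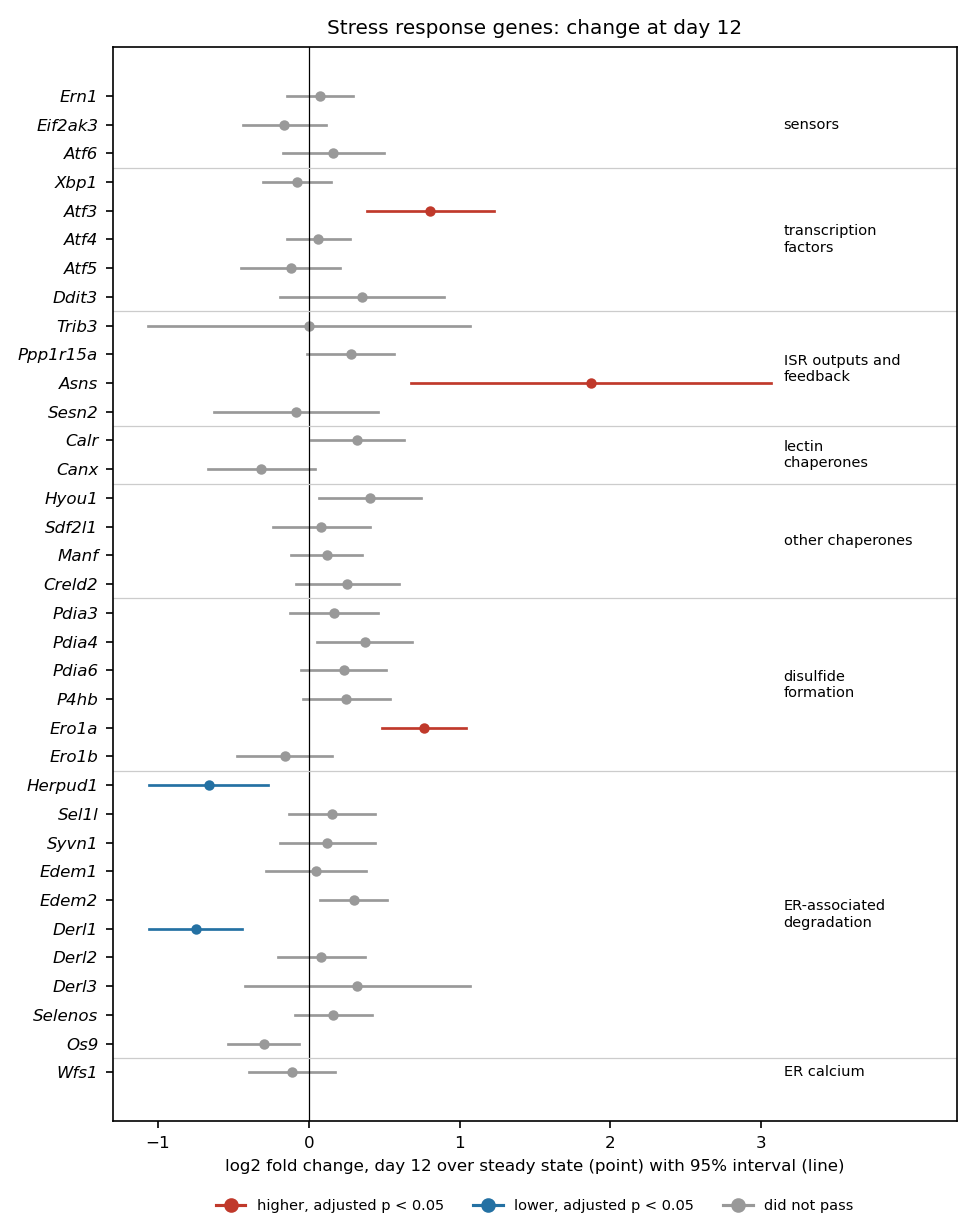
Log2 fold change of each tested stress response gene at day 12 over steady state (x axis, points) with its 95% interval (lines), ordered by role down the page; red genes were higher and blue genes lower at adjusted p under 0.05. Of the 35 genes, 5 are coloured, and Asns at 1.87 is the farthest from 0.

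The sensors came first. Ern1, which encodes IRE1 alpha, had 214, 188, 203.7 and 212 CPM in the day 12 libraries and 185, 199 and 199 CPM in steady state (log2 fold change 0.07, 95% interval -0.15 to 0.29). Eif2ak3, which encodes PERK, averaged 53.2 ± 7.41 CPM at day 12 and 59.5 ± 1.92 CPM in steady state (log2 fold change -0.16). Atf6 averaged 109.6 ± 19.9 CPM at day 12 and 97.9 ± 4.51 CPM in steady state (log2 fold change 0.16). For all 3 sensors the groups overlapped, and their intervals lay between -0.44 and 0.50. At day 12, Atf6 was lowest in replicate 4 (81.8 CPM) and highest in replicate 1 (129 CPM), and without replicate 4 it passed the test (log2 fold change 0.28, edgeR adjusted p = 0.0286).

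Of the transcription factors, 1 of 5 passed (20%, near the 20.3% of all genes). Xbp1, the target of IRE1, held 253, 232, 233 and 243 CPM at day 12 and 235, 274 and 251 CPM in steady state. Atf4, the central factor of the integrated stress response, held 72.5, 83.9, 80.5 and 77.96 CPM at day 12 and 77.1, 75.5 and 73.4 CPM in steady state. The groups overlapped in both, with log2 fold changes of -0.08 (95% interval -0.30 to 0.15) for Xbp1 and 0.06 (-0.15 to 0.27) for Atf4. Atf5, a relative of Atf4 that is likewise controlled at translation, averaged 12.9 ± 1.59 CPM at day 12 and 13.98 ± 1.95 CPM in steady state. It overlaps Nup62 on the other strand, and with no strand setting stated for the counting its level is uncertain. Ddit3, which encodes the factor CHOP that links prolonged stress to cell death, had 12.5, 8.17, 16.3 and 8.79 CPM at day 12 and 7.95, 9.10 and 9.90 CPM in steady state. Its day 12 replicates 1 and 3 lay above the steady-state libraries while replicate 2 and 4 lay among them (log2 fold change 0.35, edgeR adjusted p = 0.344).

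Atf3, a factor induced by ATF4 and by many other stimuli (ENSMUSG00000026628, GRCm39 chromosome 1, 190902493 to 190950236), had 58.4, 46.9, 68.4 and 51.5 CPM at day 12 and 37.2, 23.6 and 35.8 CPM in steady state. Every day 12 library lay above every steady-state library. The log2 fold change was 0.81 (SE 0.19, edgeR adjusted p = 0.0148), and the call was lost without steady-state replicate 2, the lowest library (log2 fold change 0.62, adjusted p = 0.0527). Atf3 is also known as an early response gene to the handling and sorting of cells. Of 18 other genes listed as responsive to handling, 11 rose (61.1%, against 10.1% of all genes) and 2 fell (11.1%, against 10.2%). An example is Fos at 251 ± 44.5 CPM at day 12 and 48.6 ± 17.7 CPM in steady state (chosen after its values were seen). The heat shock genes Hspa1a and Hspa1b, a near-identical pair that can share reads, were the members that fell, and Hspa8, with the highest level of that list, was at 813 ± 86.9 and 1024 ± 77.6 CPM without passing. The part of handling in the Atf3 result was not tested.

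The promoter of Atf3 is shown because the table of RefSeq promoters holds a composite C/EBP-ATF site in it, the type of site that ATF4 binds with C/EBP factors. It is given as the 200 bases before the RefSeq transcription start (GRCm38.p6, chr1:191183334-191183533, minus strand), with the site in capitals and read on the opposite strand.
Atf3: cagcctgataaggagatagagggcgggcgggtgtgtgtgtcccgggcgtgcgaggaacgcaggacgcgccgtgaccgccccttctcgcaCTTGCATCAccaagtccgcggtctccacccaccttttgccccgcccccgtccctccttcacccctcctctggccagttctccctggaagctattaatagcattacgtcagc

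Among the outputs of the integrated stress response, 1 of 4 tested genes passed (25%, near the 20.3% of all genes). Asns, which makes asparagine and is a standard ATF4 target (ENSMUSG00000029752, chromosome 6, 7675169 to 7693254), had 1.298, 0.880, 0.973 and 1.74 CPM at day 12 and 0.267, 0.616 and 0.0958 CPM in steady state. The groups did not overlap, but the gene was scarce, with 35 to 60 reads per day 12 library and 3 to 22 per steady-state library. Its log2 fold change was 1.87 (SE 0.53, 95% interval 0.68 to 3.07, edgeR adjusted p = 0.0351). The log2 fold change was 2.71 without steady-state replicate 2, and the call was lost without day 12 replicate 1 or 4 or steady-state replicate 1 or 3 (adjusted p from 0.0541 to 0.124). The Asns promoter carries the same composite site close to the start (GRCm38.p6, chr6:7693210-7693409, minus strand), in capitals.
Asns: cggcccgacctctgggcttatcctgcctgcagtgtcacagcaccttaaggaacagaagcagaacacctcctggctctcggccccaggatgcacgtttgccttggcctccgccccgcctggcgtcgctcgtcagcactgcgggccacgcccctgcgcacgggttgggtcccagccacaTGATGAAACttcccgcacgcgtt

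The other outputs did not pass. Ppp1r15a encodes GADD34, a regulatory subunit of the phosphatase that dephosphorylates eIF2 alpha and so ends the response. It had 25.4, 28.9, 24.1 and 20.98 CPM at day 12 and 19.0, 21.5 and 20.9 CPM in steady state (log2 fold change 0.28, edgeR adjusted p = 0.161). Day 12 replicate 4 alone lay within the steady-state range, and without it the gene passed (log2 fold change 0.35, adjusted p = 0.0280). Sesn2, an inhibitor of mTORC1 signalling, averaged 12.6 ± 4.27 CPM at day 12 and 13.4 ± 2.47 CPM in steady state. Trib3, a pseudokinase induced by ATF4 and CHOP, was near the floor in both groups, at 0.379 ± 0.136 CPM at day 12 and 0.375 ± 0.181 CPM in steady state.

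**Figure D2:**
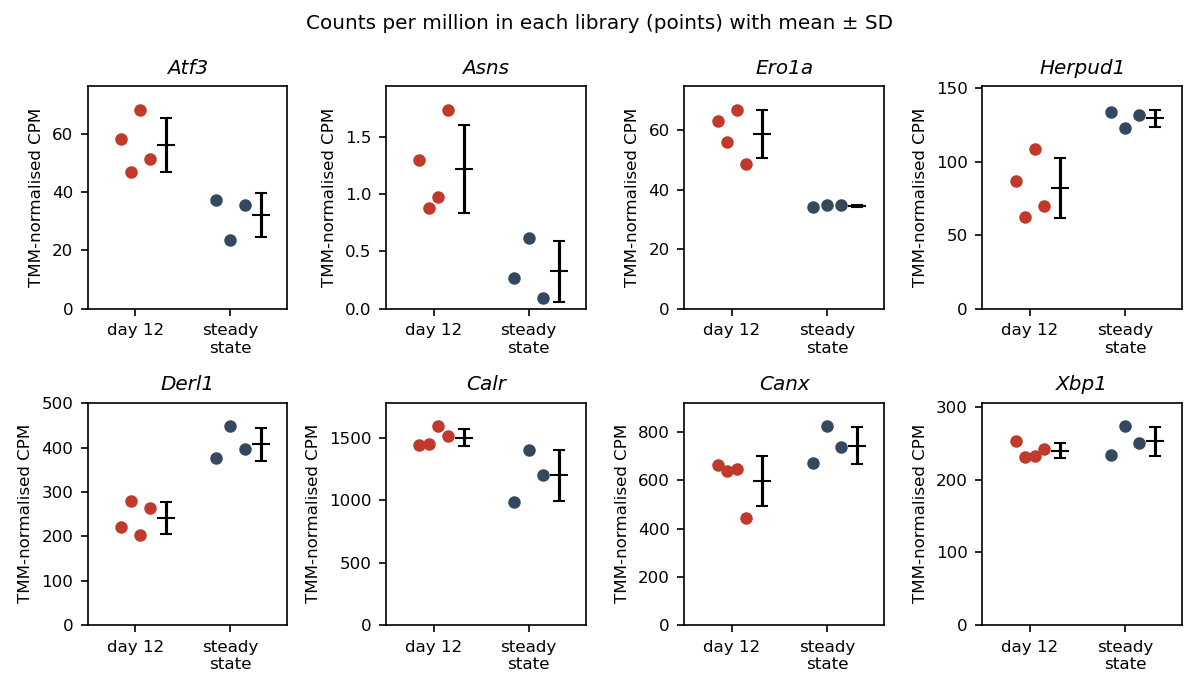
TMM-normalised CPM (y axis) of 8 genes in each of the 4 day 12 libraries (red) and 3 steady-state libraries (dark blue), with the mean ± SD as a bar beside the points. The groups are apart for Atf3, Asns, Ero1a, Herpud1, Derl1, Calr and Canx and overlap for Xbp1.

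The lectin chaperones, which hold glycoproteins while they fold, went opposite ways in their values without passing. Calr, which encodes the soluble calreticulin, had 1445, 1450, 1591 and 1510 CPM at day 12 and 989, 1404 and 1201 CPM in steady state. Canx, which encodes its membrane-bound relative calnexin, had 665, 640, 648 and 443 CPM at day 12 and 673, 825 and 737 CPM in steady state. In Calr every day 12 library lay above every steady-state library, and in Canx every one lay below. The log2 fold changes were 0.32 for Calr (95% interval 0.01 to 0.63, edgeR adjusted p = 0.131) and -0.31 for Canx (-0.67 to 0.04, adjusted p = 0.197). The ratio of Calr to Canx reads within a library was 2.17, 2.27, 2.46 and 3.41 at day 12 and 1.47, 1.70 and 1.63 in steady state. The ratio was chosen after its parts were seen and carries no test.

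Both promoters hold an ER stress element, the site through which ATF6 and XBP1 act together with the CCAAT-binding factor NF-Y. They are shown for this shared site, in capitals (GRCm38.p6; Calr chr8:84846932-84847131, minus strand; Canx chr11:50325674-50325873, minus strand). In Calr it is read on the opposite strand.
Calr: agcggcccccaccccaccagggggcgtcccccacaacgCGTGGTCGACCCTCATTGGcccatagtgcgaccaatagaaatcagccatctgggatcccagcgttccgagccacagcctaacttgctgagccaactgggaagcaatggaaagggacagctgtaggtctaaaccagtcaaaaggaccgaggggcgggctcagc
Canx: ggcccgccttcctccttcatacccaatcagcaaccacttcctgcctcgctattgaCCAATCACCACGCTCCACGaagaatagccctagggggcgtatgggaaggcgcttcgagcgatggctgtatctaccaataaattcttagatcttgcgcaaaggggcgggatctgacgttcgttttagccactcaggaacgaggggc

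None of the other 4 folding factors passed edgeR's test, while DESeq2 called Hyou1 (adjusted p = 0.0432). Hyou1, a large chaperone and exchange factor for the ER HSP70, had 331, 251, 288 and 274 CPM at day 12 and 182, 262 and 203.6 CPM in steady state (log2 fold change 0.41, edgeR adjusted p = 0.0877). Day 12 replicate 2 alone lay within the steady-state range. Sdf2l1, a partner of the ER HSP70, averaged 147 ± 19.4 CPM at day 12 and 139 ± 21.9 CPM in steady state. Manf, a secreted ER stress protein, averaged 128 ± 9.78 CPM at day 12 and 118 ± 7.57 CPM in steady state, with Rbm15b overlapping it on the same strand. Creld2, an ER-resident protein of the secretory pathway, averaged 60.5 ± 7.25 CPM at day 12 and 50.7 ± 10.3 CPM in steady state. Their log2 fold changes ran from 0.08 to 0.41.

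In disulfide formation, Ero1a rose and its paralogue Ero1b did not pass. Both encode oxidases that reoxidise protein disulfide isomerase. Ero1a (ENSMUSG00000021831, chromosome 14, 45520544 to 45556228) had 62.96, 56.2, 66.9 and 48.7 CPM at day 12 and 34.2, 34.8 and 34.8 CPM in steady state. The lowest day 12 library lay well above the 3 steady-state libraries, which differed by less than 1 CPM. The log2 fold change was 0.76 (SE 0.12, edgeR adjusted p = 0.00269), and the call held in all 14 alternative fits, with log2 fold changes from 0.70 to 0.85. Ero1b had 35.0, 30.7, 34.8 and 23.8 CPM at day 12 and 34.8, 34.1 and 35.4 CPM in steady state (log2 fold change -0.16, edgeR adjusted p = 0.465). The ratio of Ero1a to Ero1b reads was 1.80, 1.83, 1.92 and 2.05 at day 12 and 0.984, 1.02 and 0.983 in steady state. It carries no test, and since Ero1a itself was called, it is not separate support. Ero1a is in addition a known target of the hypoxia factor HIF1 and Ero1b is known as the form of secretory tissues.

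The disulfide isomerases themselves did not pass edgeR's test, while DESeq2 called Pdia4 (adjusted p = 0.0497). Pdia3, the isomerase that works with the lectin chaperones, averaged 1073 ± 110.9 CPM at day 12 and 956 ± 92.7 CPM in steady state. P4hb, which encodes protein disulfide isomerase, averaged 946 ± 86.5 CPM at day 12 and 796 ± 98.4 CPM in steady state. Pdia6 averaged 427 ± 9.38 CPM at day 12 and 364 ± 60.5 CPM in steady state. All 3 means were higher at day 12 by log2 fold changes of 0.17 to 0.25, and in each the libraries of the groups overlapped. Pdia4 had the lowest p of the isomerases, with 233 ± 18.96 CPM at day 12 and 180.1 ± 33.8 CPM in steady state (log2 fold change 0.37, edgeR adjusted p = 0.0930).

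**Figure D3:**
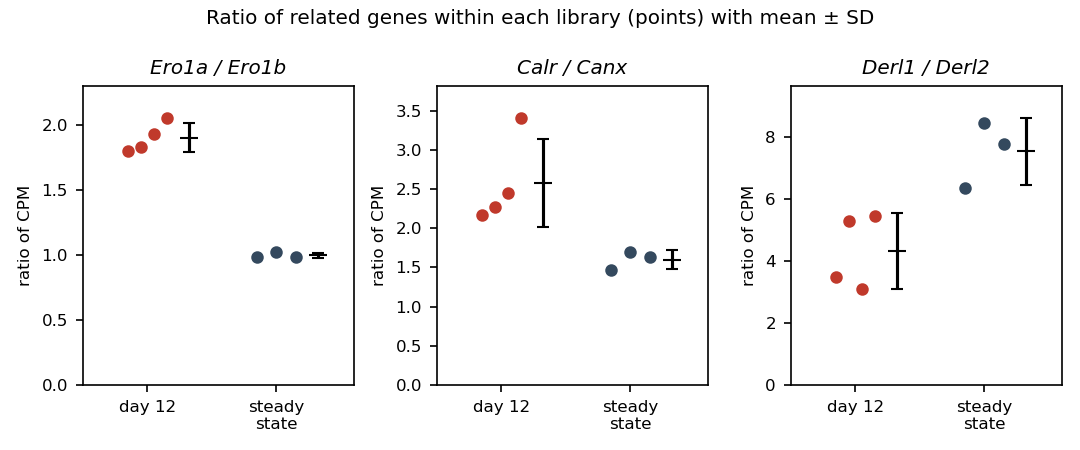
Ratio of the CPM of 2 related genes within each library (y axis, linear from 0), for the 4 day 12 libraries (red) and the 3 steady-state libraries (dark blue), with mean ± SD. The groups are apart in the 3 ratios drawn: Ero1a to Ero1b and Calr to Canx are higher at day 12, and Derl1 to Derl2 is lower. Ero1a and Derl1 were themselves called, so their ratios largely repeat those calls, and no ratio was tested. The ratio of Xbp1 to Ern1, not drawn, was 1.146 to 1.235 at day 12 and 1.265 to 1.375 in steady state.

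ER-associated degradation pulls misfolded proteins back into the cytosol for the proteasome, and 2 of its 10 genes fell (20%, against 10.2% lower and 20.3% called over all genes) while 0 rose in edgeR's test (at an unadjusted p under 0.05, 3 were lower and 1 higher, and DESeq2 called 3 lower and 1 higher). Derl1, which encodes derlin 1 of the membrane channel (ENSMUSG00000022365, chromosome 15, 57732898 to 57755844), had 221, 280, 202 and 264 CPM at day 12 and 376, 448 and 397 CPM in steady state. All day 12 libraries lay below all of steady state. Its log2 fold change was -0.75 (SE 0.14, edgeR adjusted p = 0.00503), and the call held in all 14 alternative fits, with log2 fold changes from -0.80 to -0.67. Its relatives did not pass: Derl2 averaged 57.6 ± 8.24 CPM at day 12 and 54.4 ± 4.24 CPM in steady state, and Derl3 averaged 1.03 ± 0.251 and 0.825 ± 0.283 CPM. The ratio of Derl1 to Derl2 reads was 3.48, 5.28, 3.08 and 5.46 at day 12 and 6.35, 8.46 and 7.77 in steady state, where Derl2 overlaps Mis12 on the other strand. This ratio carries no test and largely repeats the fall of Derl1. Derl3 is known from antibody-secreting plasma cells. Of the 7 tested plasma cell markers, Igkc (4.41 ± 2.03 CPM at day 12 and 1.00 ± 0.484 CPM in steady state) and Pou2af1 (1.56 ± 1.08 and 0.350 ± 0.200 CPM) were higher, and Jchain, Iglc2, Sdc1, Prdm1 and Irf4 did not pass. Sdc1 and Prdm1 had lower means at day 12.

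Herpud1, a membrane protein that gathers the degradation complex and a standard readout of ER stress (ENSMUSG00000031770, chromosome 8, 95113066 to 95122005), had 86.7, 62.3, 108 and 70.2 CPM at day 12 and 134, 123 and 132 CPM in steady state. The groups did not overlap, and the day 12 libraries were more spread than those of steady state. The log2 fold change was -0.66 (SE 0.18, edgeR adjusted p = 0.0264). The call held without day 12 replicate 3 (adjusted p = 0.00481) and was lost without any other single library: the adjusted p was 0.0570, 0.0548 and 0.0543 without day 12 replicates 1, 2 and 4, and 0.101, 0.0705 and 0.0901 without steady-state replicates 1, 2 and 3. Its promoter is shown because it holds a composite C/EBP-ATF site, on the opposite strand, and nearer the start an ER stress element of type II, both in capitals (GRCm38.p6, chr8:94386229-94386428, plus strand).
Herpud1: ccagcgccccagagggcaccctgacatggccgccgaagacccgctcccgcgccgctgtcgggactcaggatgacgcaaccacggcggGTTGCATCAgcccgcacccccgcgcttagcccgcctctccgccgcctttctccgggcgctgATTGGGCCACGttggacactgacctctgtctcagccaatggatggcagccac

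The remaining degradation genes did not pass edgeR's test, and their log2 fold changes were smaller. Os9, a lectin that recognises misfolded glycoproteins, had 250, 272, 287 and 303 CPM at day 12 and 325, 351 and 350.2 CPM in steady state. Edem2, a mannosidase that marks glycoproteins for degradation, had 91.1, 81.8, 81.1 and 90.6 CPM at day 12 and 67.8, 74.9 and 67.6 CPM in steady state. In both the groups did not overlap, Os9 lower and Edem2 higher, with log2 fold changes of -0.30 (edgeR adjusted p = 0.0744) and 0.30 (0.0607). Edem1 averaged 254 ± 47.3 CPM at day 12 and 245 ± 6.11 CPM in steady state. Sel1l and Syvn1, the adaptor and the ubiquitin ligase at the core of the complex, had log2 fold changes of 0.15 and 0.12, and Selenos, a selenoprotein that recruits the p97 ATPase, 0.16. Wfs1, an ER protein of calcium balance, averaged 22.6 ± 2.60 CPM at day 12 and 24.5 ± 2.58 CPM in steady state.

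**Figure D4:**
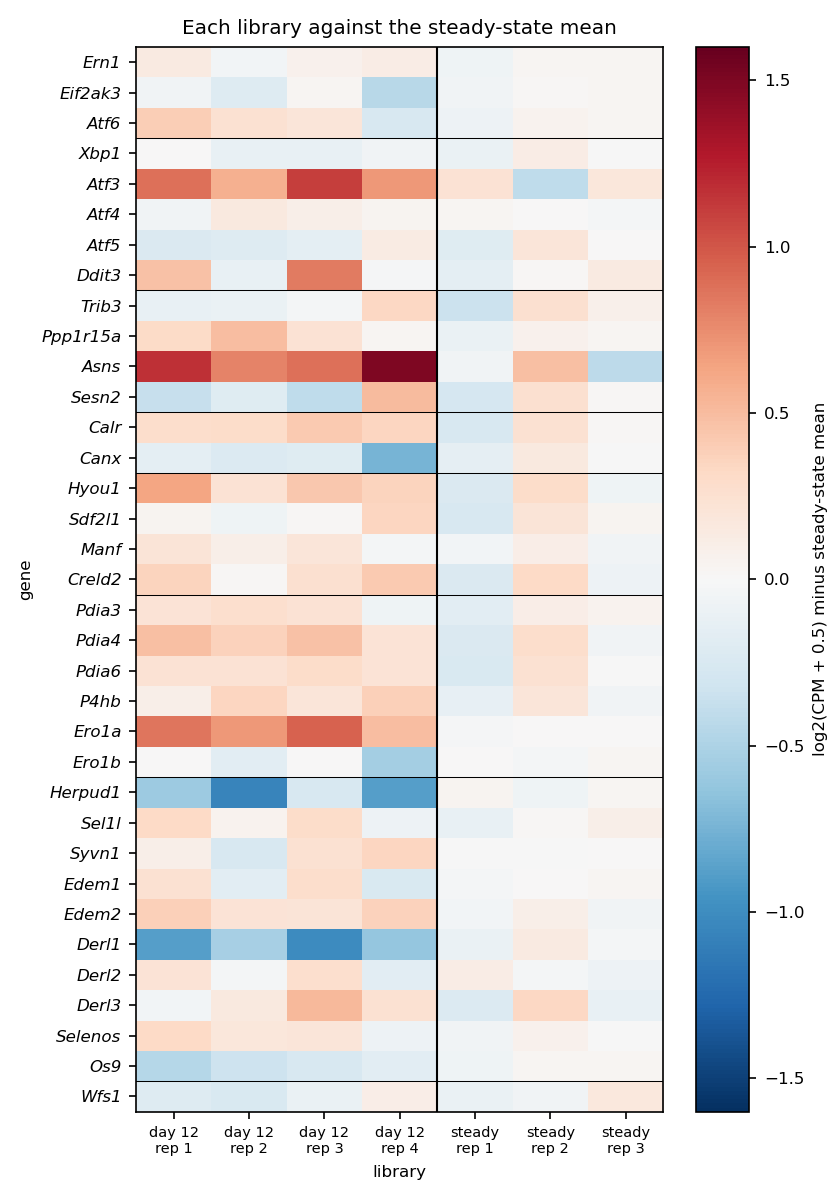
Log2(CPM + 0.5) of each of the 35 tested genes (rows, ordered by role) in each library (columns, 4 of day 12 and then 3 of steady state) minus the mean of the steady-state libraries, with red above and blue below that mean. The rows of Atf3, Asns and Ero1a are red and those of Herpud1 and Derl1 blue in all 4 day 12 columns, and steady-state replicate 2 is red for the chaperones.

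The steady-state libraries kept nearly the same order over the chaperones. Among the 10 genes of lectin chaperones, other folding factors and disulfide isomerases (Calr, Canx, Hyou1, Sdf2l1, Manf, Creld2, Pdia3, Pdia4, Pdia6 and P4hb), steady-state replicate 2 was the highest steady-state library in 10 and replicate 1 the lowest in 9. Part of this order was also seen outside the chaperones. Replicate 2 also had the highest steady-state sum of CPM for the sensors, transcription factors, integrated stress response outputs and degradation genes, but not for Wfs1. For the sensors the margin was small (360.7 CPM against 359.1 CPM in replicate 3). By gene, replicate 2 was the highest steady-state library for Xbp1 and Derl1 and the lowest for Atf3 and Herpud1. The share over all genes was not counted. The log2 fold change was above 0 in 9 of these 10 (median 0.24), in 25 of the 35 genes and in 8033 of the 15981 genes tested. Since the 10 genes varied together over the steady-state libraries, they are not separate results. Of the 10, 0 passed the test (at an unadjusted p under 0.05, Calr, Hyou1 and Pdia4 stood out, DESeq2 called Hyou1 and Pdia4, and limma-voom called 0), where 20.3% of all genes passed. Day 12 replicate 4 was the lowest day 12 library in 5 of the 10 and the highest in 3. Over all 35 genes, day 12 replicate 4 was the lowest of its group in 14 and the highest in 10. The median coefficient of variation was 13.2% at day 12 and 9.09% in steady state.

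Per kilobase of merged exon, which allows levels to be set against each other, Calr was the most abundant of the 36 genes in both groups (520.4 ± 23.7 CPM per kilobase at day 12 and 416 ± 72.1 in steady state). Pdia3 (342 ± 35.3 at day 12 and 304.5 ± 29.6 in steady state) and P4hb (331 ± 30.2 and 278 ± 34.4) followed, and neither had passed the test. Derl1 was at 72.7 ± 10.9 CPM per kilobase at day 12 and 122 ± 11.1 in steady state, rank 10 and rank 7 of the 36. The sensors lay lower, for example Ern1 at 24.98 ± 1.46 CPM per kilobase at day 12 and 23.8 ± 1.00 in steady state. Chac1, Asns, Trib3 and Derl3 were the lowest, each under 1 CPM per kilobase. Exon lengths came from an annotation of GRCm38, so these levels are approximate.

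Promoters of 32 of the 36 genes were in the RefSeq table (GRCm38.p6, 250 bases before to 50 after the start) and were searched on both strands. Those of Derl1, which was called, and of Hyou1, Manf and Atf6 were missing, so these genes were not searched. The ER stress element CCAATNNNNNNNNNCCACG was in 7 of the 32 (21.9%) and in 0.119% of all 32851 promoters. Its holders were Calr, Canx, Creld2, Pdia6, Ero1b, Syvn1 and Derl3. Of these 7, 0 passed the test in either direction, where 20.3% of all genes did, with log2 fold changes from -0.31 to 0.32 (at an unadjusted p under 0.05, Calr stood out, and DESeq2 and limma-voom called 0 of them). The composite C/EBP-ATF site TGATGNAAN was in 5 of the 32 (15.6%) and in 3.95% of all promoters. Of its holders, Atf3 and Asns were higher, Herpud1 was lower, Trib3 did not pass and Chac1 was not tested. The 7 and the 4 tested holders are too few to be set apart from the share of all genes called or from each other. The type II element, ATTGG and CCACG with any base between them, added to the search with results known, was in Herpud1 and in 0.0365% of all promoters. The site TGACGTGG, whose reverse complement begins with the CCACG of the ER stress element, was in 0 of the 32 windows and in 0.676% of all. These genes are textbook targets, so the matches describe the set and are not bound sites in these cells.

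Other genes of the pathway were taken from a list of 79, of which 73 were tested. At day 12, 8 of these rose and 4 fell (16.4% of the 73, against 20.3% of all genes), with a median log2 fold change of 0.07. Among the rises with the lowest p, Wars1, the tryptophan tRNA synthetase that interferon gamma also induces, was at 303 ± 164 CPM at day 12 and 92.4 ± 11.8 CPM in steady state (log2 fold change 1.71, edgeR adjusted p = 0.0152). Aars, the alanine tRNA synthetase, was at 67.6 ± 8.95 and 48.2 ± 0.930 CPM (adjusted p = 0.0188). Sec61g, of the protein channel into the ER, was at 5.09 ± 1.20 and 2.65 ± 0.342 CPM (adjusted p = 0.0209), and Eif2ak1, the heme-regulated eIF2 alpha kinase, at 130.3 ± 8.93 and 100.7 ± 5.02 CPM (adjusted p = 0.0273). The number of rises depended on single libraries: it was 1 without steady-state replicate 1, 0 without steady-state replicate 2 or 3, 5 without day 12 replicate 1 or 2 and 16 without day 12 replicate 4, in place of 8. Wars1 and Eif2ak1 also lost their calls with no filter on low counts (adjusted p = 0.0695 and 0.0642), and Eif2ak1 without day 12 replicate 1 or 3 (0.0662 and 0.0523).

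The 4 falls were in Cebpg, Ube2j1, Bbc3 and Pck2. Cebpg, a dimer partner of ATF4, was at 80.4 ± 9.93 CPM at day 12 and 131 ± 5.87 CPM in steady state (log2 fold change -0.70, edgeR adjusted p = 0.00311). Ube2j1, the ubiquitin-conjugating enzyme of the ER membrane, was at 35.2 ± 4.52 and 54.6 ± 0.805 CPM (adjusted p = 0.00521). Bbc3, which encodes the cell death protein PUMA, was at 4.97 ± 0.947 and 10.6 ± 2.22 CPM (adjusted p = 0.00550), and Pck2, a mitochondrial enzyme induced by ATF4, at 11.7 ± 3.69 and 22.99 ± 2.18 CPM (adjusted p = 0.0142). Pck2 lost its call without steady-state replicate 1 or 2 (adjusted p = 0.0706 and 0.0528), while the other 3 kept theirs with any 1 library left out. In all 4 the day 12 libraries lay below those of steady state. Of 18 tested genes listed as ATF4 and CHOP targets, 3 fell and 0 rose in edgeR's test, which makes 16.7% called, against 20.3% of all genes (at an unadjusted p under 0.05, 4 were lower and 3 higher, and DESeq2 called 3 lower and 2 higher). Of the 6 eIF2 kinases and regulators, 3 rose and 0 fell in edgeR's test (50% higher, against 10.1% of all genes). Among them Eif2ak2, the kinase activated by double-stranded RNA, passed narrowly (adjusted p = 0.0499). DESeq2 called 3 higher and 0 lower, limma-voom 2 higher and 0 lower, and 3 were higher and 1 lower at an unadjusted p under 0.05 in edgeR.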

How the data were processed

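RNA of sorted macrophages was measured in 7 libraries, grouped by the sample titles. Per the labels' protocols, poly-A RNA was made into stranded libraries from 30 ng of total RNA and sequenced as single reads; they speak of 3 biological replicates per condition, while the titles give 4 for day 12. The authors deposited raw read counts per gene, 1 column per library, with no normalisation. Per the submitters' processing notes, the build was GRCm39 and the tools included featureCounts from Subread 2.0.6 and the aligner STAR 2.7.11a; neither the annotation release nor the strand and multi-mapping settings are stated. Of the 35 tested genes, 11 overlap another gene with reads, and none of the 5 called genes does.

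Counts were tested with edgeR 4.0.16 in R 4.3.3 (robust quasi-likelihood, TMM, group as the only term, filterByExpr with minimum count 10 and total 15), with Benjamini-Hochberg adjustment at 0.05 over 15981 genes. Intervals of 95% and SE were derived from the fold change and F. The procedure was tested on simulated data, where it recovered 17 of 67 changes of 1.5-fold (25.4%), 47 of 67 of 2-fold (70.1%) and 65 of 66 of 4-fold (98.5%). It called 136 of 15326 genes there, and 7 of these calls were false. Small changes were thus often missed there. In the 7 libraries, 3242 of 15981 genes were called. Recovery with so many genes called was not tested, so these rates may not hold for the libraries. Alternatives were DESeq2 1.42.0, limma-voom (limma 3.58.1), RLE and upper quartile factors, no filter, a filter of 1 CPM in 3 libraries, a replicate block and each library left out. P-values reflect only the spread among libraries, and floors cover counting error only. Genes and lists were chosen with earlier results of these data known. All 36 genes are accounted for, with full statistics for those called; of the other pathway genes, the 4 with the lowest p in each direction are named, and of the handling list the most abundant.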

Additional observations from a re-analysis of the deposited data

Results flagged for a closer look

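Day 12 replicate 4 stood apart from the other day 12 libraries in 2 of the 35 tested genes. It held 443 CPM of Canx, against 640 to 665 CPM in the other 3, and 908 CPM of Pdia3, against 1112 to 1148 CPM. In each case the gap to the nearest library, as a share of the whole range of the 4 (0.887 for Canx and 0.850 for Pdia3), was above Dixon's 95% critical value. Chance flags about 5% of independent groups of 4 in this way. Both flags fell on replicate 4 and on genes of the chaperone set, so they are not separate results. The 2 of 35 genes can therefore not be set against that rate.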

How the results depend on the processing

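For the single genes, 231 of 243 values under the alternatives of test, normalisation, filter and block, and 217 of 245 values with 1 library left out, kept their direction and their side of the threshold. Ero1a and Derl1 did so in all 14 alternatives. With DESeq2, 6 genes were called higher in place of 3, and Hyou1 (log2 fold change 0.42), Pdia4 (0.38), Edem2 (0.31) and Os9 (-0.29) gained a call. Edem2 also gained one with upper quartile factors (0.34), with the filter of 1 CPM (0.33) and under the block (0.27). Trib3, near the floor, turned to -0.0041 with no filter. Asns was not tested under the filter of 1 CPM. The cause of these changes was not tested, except that leaving out a library leaves fewer samples.

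Under the replicate block, which leaves out day 12 replicate 4, Ppp1r15a (0.35) and Os9 (-0.34) gained a call, Asns (1.81, adjusted p = 0.0659) lost it, Trib3 turned to -0.20, and 16 other pathway genes were higher and 9 lower in place of 8 and 4. The labels do not say that the numbers pair the samples. Deviations of same-numbered libraries from their group means correlated at -0.171, 0.033 and 0.252 over genes, and not every library correlated best with its own number. With group means of 4 and 3 libraries, such correlations can neither show nor exclude a pairing.

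With each library left out in turn, 1761 to 4599 genes were called in all (3242 with all libraries), 2 to 7 stress response genes were higher and 1 to 2 lower, and 0 to 16 other pathway genes were higher. The log2 fold changes ran from 1.45 to 2.71 for Asns, 0.62 to 0.95 for Atf3, -0.83 to -0.52 for Herpud1, 0.092 to 0.28 for Atf6, 0.27 to 0.35 for Edem2, -0.34 to -0.24 for Os9, 0.28 to 0.53 for Pdia4, 0.23 to 0.35 for Ppp1r15a and 0.12 to 0.24 for Selenos. The sign changed in some of these fits for Edem1 (-0.036 to 0.14), Sdf2l1 (-0.0096 to 0.19), Sesn2 (-0.35 to 0.050) and Trib3 (-0.31 to 0.35), which passed in none. Depth limits Trib3, Chac1, Asns and Derl3, with few reads per library.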
